A study of Mus musculus with 6 samples.

Results

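The Gramd genes encode membrane proteins that carry a GRAM domain, a lipid-binding fold related to the PH domain. The 5 members taken here, Gramd1a, Gramd1b, Gramd1c, Gramd3 and Gramd4, were the rows with these symbols among the 16383 genes listed in the expression table. Gramd3 was picked because its level in cells without Tcf1 and Lef1 was among those farthest below wild type. The other 4 members came in by name, through the family, and not through their values.

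The cells were mature CD8 thymocytes of mice, the last CD8 stage before T cells leave the thymus, sorted by a high level of TCRβ, by CD8 and by the absence of CD69 and CD24. The 6 libraries came 2 each from 3 genotypes: cells deficient for Tcf1 and Lef1 (labelled Tcf1-/-Lef1-/-, DKO), cells deficient for Tcf1 (labelled Tcf1-/-, Tcf1 KO) and wild type (WT). Tcf1 is encoded by Tcf7 and, like its relative Lef1, binds DNA through an HMG box and guides T cell development. The design text names CD4-Cre, which acts from the double-positive stage on, as the means of deletion, and gives no mouse ages. Whether the 2 libraries of each genotype stem from different mice is not in the labels, so p-values reflect the spread between samples alone, and that spread may be technical.

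The 3 Gramd1 proteins, also called Asters, sit in the endoplasmic reticulum (ER) membrane and reach over to the plasma membrane, where their sterol-binding domain takes up accessible cholesterol and carries it to the ER. Sterol arriving there restrains the cell's own cholesterol synthesis. Gramd3, also named Gramd2b, has a GRAM domain and a membrane anchor but lacks the sterol-binding domain of the Asters. Gramd4 is another GRAM-domain membrane protein, and its human form has been described as a mitochondrial factor of cell death downstream of E2F1. A lipid-transfer role is thus known for the Gramd1 members and not for all 5.

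Values are FPKM, that is, fragments relative to transcript length in kilobases and to the mapped total of a library, so levels can be set side by side between genes. Depth is not stated. The spacing of low values in short transcripts, with an assumed fragment length of 200 bases, corresponded to roughly 51750000 to 60000000 fragments per library. At these depths 65.0% to 76.0% of the values used lay within 0.25 of a whole fragment. Each depth was chosen for nearness to whole fragments, and evenly spread values would often lie that near too. The figure is therefore approximate and was not checked otherwise. The libraries of a genotype correlated across genes at r = 0.9856 (DKO), 0.9892 (Tcf1 KO) and 0.9916 (WT). Lef1 was at 130.6 ± 0.488 FPKM in DKO, 310.1 ± 1.97 FPKM in Tcf1 KO and 299.0 ± 24.2 FPKM in WT (SD, n = 2 each). In DKO against WT Lef1 fell by 1.19 ± 0.06 on the log2 scale (limma adjusted p = 0.000157). A value for the whole gene does not show whether the signal left in DKO comes from the deleted exons. The symbols of the table end at Pcsk5 in alphabetical order; later ones, Tcf7 among them, are not analysed here, so ranks, shares of tested genes and list counts cover the listed genes alone.

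Of the markers that define the sorted cells, Cd8a was at 525.7 ± 13.1 FPKM in DKO, 651.2 ± 6.90 FPKM in Tcf1 KO and 580.7 ± 27.2 FPKM in WT, and Cd8b1 at 876.4 ± 68.0 FPKM in DKO, 916.7 ± 34.3 FPKM in Tcf1 KO and 754.6 ± 49.6 FPKM in WT. In DKO against WT neither passed (log2 differences of -0.14 ± 0.05 and 0.22 ± 0.08), while the T cell receptor subunit genes Cd3e (0.35 ± 0.06, limma adjusted p = 0.00616) and Cd3g (0.50 ± 0.06, adjusted p = 0.00171) rose. Against Tcf1 KO, Cd8a was lower in DKO (-0.31 ± 0.05, limma adjusted p = 0.00765) and Cd8b1 was not called. Of the markers sorted against, Cd24a was at 4.28 ± 2.10, 3.53 ± 1.12 and 2.92 ± 0.438 FPKM and Cd69 at 27.2 ± 0.0778, 32.4 ± 1.12 and 37.7 ± 2.44 FPKM in DKO, Tcf1 KO and WT. Cd69 fell in DKO against WT (-0.46 ± 0.06, limma adjusted p = 0.0023), and Cd24a was not called. Markers of other cells also moved with genotype. The 4 CD4 T cell markers (Cd4, Cd40lg, Foxp3 and Ctla4) summed to 105.2 to 150.4 FPKM in DKO, 11.8 to 20.8 FPKM in Tcf1 KO and 4.21 to 5.62 FPKM in WT, and 3 of the 4 rose in DKO against WT. The 8 markers of NK and γδ T cells, of which Ncr1 was listed at 0 throughout, summed to 265.6 to 299.9 FPKM in DKO, 78.6 to 89.4 FPKM in Tcf1 KO and 29.9 to 31.8 FPKM in WT. Of these 8, 4 were tested, and in DKO against WT 2 rose and 1 fell. The sum in DKO came mostly from the 2 that rose, Il18r1 and Gzma. Their means were 195.7 and 82.0 FPKM in DKO, against 9.93 and 1.91 FPKM in WT. Cd160 fell, to a mean of 1.53 FPKM in DKO against 16.1 FPKM in WT. Klrk1 was not called, and no untested marker of this list exceeded 0.74 FPKM. In Tcf1 KO against WT 2 of the 4 were called higher. These were Il18r1 (mean 50.6 FPKM, 2.24 ± 0.12, limma adjusted p = 0.00279) and Cd160 (mean 28.6 FPKM, 0.79 ± 0.08, adjusted p = 0.0167). Cd160 thus moved the other way there than in DKO, and its call did not hold whichever library was left out. The 4 double-positive thymocyte markers summed to 23.1 to 28.7 FPKM in DKO, 33.6 to 39.9 FPKM in Tcf1 KO and 12.4 to 14.6 FPKM in WT, with 2 of the 4 called higher in DKO than in WT, both of which held whichever library was left out. In Tcf1 KO against WT 3 of the 4 were called higher, and 0 of these 3 calls held in that way. Most of the sum in Tcf1 KO came from 1 gene at 26.4 ± 2.74 FPKM, which was not called in DKO against WT. In DKO against Tcf1 KO 1 of the 4 was called higher and 1 lower. The 4 include Cd24a, which is also a sort marker given above. The 9 thymic stromal markers, with Col3a1, Kdr and Dcn at 0, summed to 3.75 to 4.40 FPKM in DKO, 2.11 to 2.66 FPKM in Tcf1 KO and 2.05 to 2.26 FPKM in WT; Epcam rose in DKO against WT (0.54 ± 0.14, limma adjusted p = 0.0221), and Cdh5 was at 1.73 ± 0.304 FPKM in DKO against 0.630 ± 0.0707 FPKM in WT. The 8 B cell markers, with Pax5 at 0, summed to 23.3 to 26.4 FPKM in DKO, 15.4 to 17.2 FPKM in Tcf1 KO and 20.1 to 20.7 FPKM in WT, mostly from Cd79b, which rose in DKO against WT (0.29 ± 0.09, limma adjusted p = 0.0396). The 9 myeloid markers, with Cd14 and Elane at 0, summed to 4.39 to 5.36 FPKM in DKO, 4.95 to 5.30 FPKM in Tcf1 KO and 5.04 to 5.58 FPKM in WT, and Cd68 fell in DKO against WT (-0.30 ± 0.10, limma adjusted p = 0.0442). The 8 erythroid markers, with Hba-a2 and Car1 at 0, summed to 0.670 to 2.09 FPKM in DKO, 0.620 to 0.710 FPKM in Tcf1 KO and 0.320 to 0.450 FPKM in WT. The calls of Epcam, Cd79b and Cd68 did not hold whichever library was left out. Over all genes, the share called was 49.5% in DKO against WT and 2.09% in Tcf1 KO against WT. In bulk RNA, fewer cells that express a gene and less RNA per cell cannot be told apart. The part of these marker differences in the results below was not tested.

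Gramd3 had 1.10 and 0.52 FPKM in the 2 DKO libraries, 65.8 and 58.3 FPKM in the Tcf1 KO libraries and 67.4 and 53.5 FPKM in the WT libraries. Both DKO libraries lay far below all others, and the Tcf1 KO libraries lay within the range of the WT libraries. The group means were 0.810 ± 0.410 FPKM in DKO, 62.1 ± 5.32 FPKM in Tcf1 KO and 60.5 ± 9.81 FPKM in WT. The mean was 74.6-fold lower in DKO than in WT, with ratios of 48.7 to 129.6 over the pairs of libraries, and 76.6-fold lower in DKO than in Tcf1 KO, with ratios of 53.0 to 126.6. At the approximate depth given above, the DKO values corresponded to about 146 and 64.7 fragments, against about 6760 and 9730 in WT. If that depth holds, they were low and still above the level of a few fragments.

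On the log2(FPKM + 1) scale Gramd3 differed by -5.10 ± 0.18 (SE) in DKO against WT, by -5.14 ± 0.18 in DKO against Tcf1 KO and by 0.04 ± 0.18 in Tcf1 KO against WT. The DKO and WT libraries that chose the gene enter at least one side of each of these comparisons, so the values are a description and no p is given. Among 6761 genes tested, the difference in DKO against WT ranked 3 from the lowest, between Igfbp4 (-5.37) and Mki67 (-4.66). In Tcf1 KO against WT, where the rule used only the WT side, 63.5% of tested genes had a lower value than Gramd3. Mean Gramd3 level was above that of 88.7% of tested genes in WT and 89.3% in Tcf1 KO, but above only 3.7% in DKO.

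**Figure D1:**
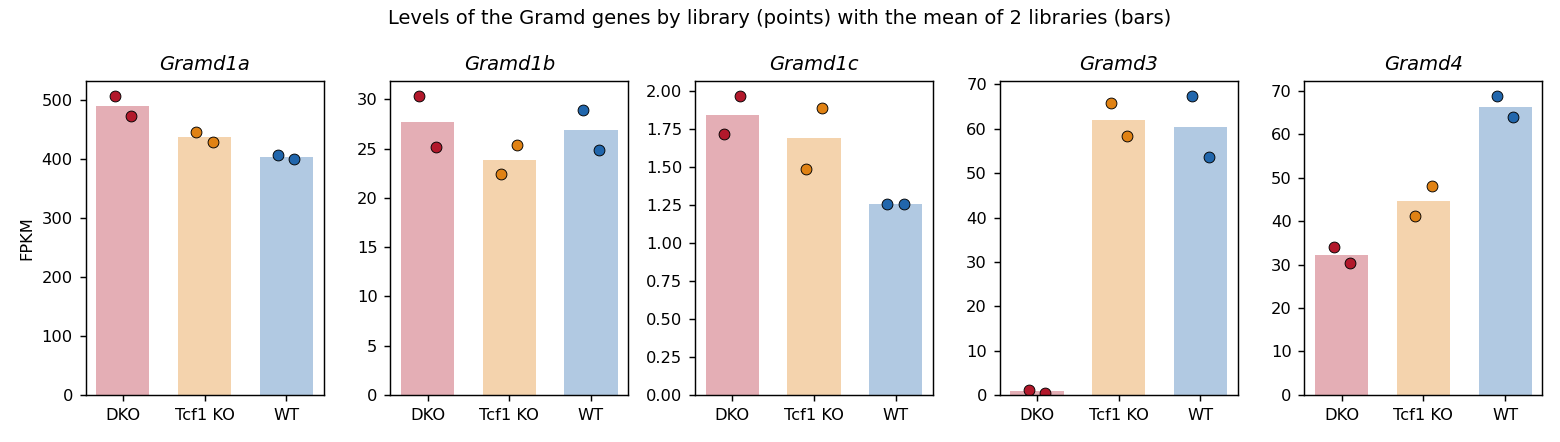
FPKM (linear axis, from 0) of the 5 Gramd genes in DKO, Tcf1 KO and WT; points are the 2 libraries of a genotype and bars their mean. Gramd3 is at 1.10 and 0.52 FPKM in DKO against 53.5 or more in the other 4 libraries, Gramd4 is lowest in DKO and highest in WT, and Gramd1a is somewhat higher in DKO than in WT.

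Genes with a pattern near that of Gramd3 were looked up by distance over the 6 libraries on centred log2(FPKM + 1) values. Gpr97, an adhesion-type G protein-coupled receptor also known as Adgrg3, lay at a distance of 1.46, with 0.540 ± 0.141 FPKM in DKO, 23.5 ± 0.332 FPKM in Tcf1 KO and 21.5 ± 1.90 FPKM in WT. Mki67, which marks cycling cells, followed at 1.59, Cd226, an activating receptor of T and NK cells, at 1.66 and Gpr55, a receptor for lysophospholipids, at 1.68. The DKO levels of these 3 were 0.805 ± 0.177, 3.15 ± 0.976 and 0.200 ± 0.0707 FPKM. In WT they were at 44.7 ± 3.10, 61.2 ± 0.608 and 16.1 ± 0.339 FPKM. Mki67 differed from the others in Tcf1 KO, at 28.3 and 16.7 FPKM against 46.9 and 42.5 FPKM in WT, whereas Cd226 and Gpr55 in Tcf1 KO, at 54.7 ± 5.35 and 14.7 ± 2.79 FPKM, were near WT. These genes share libraries and were chosen for likeness, so no test is attached.

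**Figure D2:**
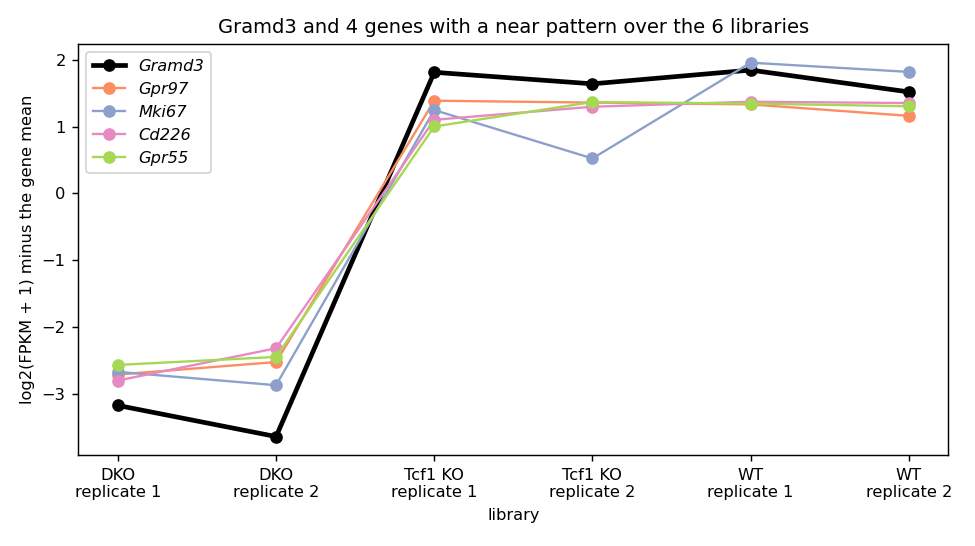
Log2(FPKM + 1) minus the gene's own mean, by library, for Gramd3 (thick black line) and 4 genes with a near pattern. All lines are low in both DKO libraries and high in the other 4, and Mki67 is lower in Tcf1 KO than in WT.

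Gramd4 fell in cells without both factors. The DKO libraries had 34.0 and 30.4 FPKM, the Tcf1 KO libraries 41.2 and 48.1 FPKM and the WT libraries 68.8 and 64.0 FPKM. The 3 genotypes did not overlap, with DKO lowest and Tcf1 KO in between. The means were 32.2 ± 2.54, 44.6 ± 4.87 and 66.4 ± 3.46 FPKM in DKO, Tcf1 KO and WT. In DKO against WT, Gramd4 fell by 1.02 ± 0.10 on the log2 scale (limma adjusted p = 0.000631, lower in 2 of 2 libraries), and this call held under all 15 alternatives, with adjusted p from 0.000481 to 0.00793.

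The additional loss of Lef1 was compared through DKO against Tcf1 KO. Gramd4 was lower in DKO there by 0.46 ± 0.10 (limma adjusted p = 0.0145, lower in 2 of 2 libraries). That call ended without DKO replicate 2 (adjusted p = 0.0511) or without Tcf1 KO replicate 2 (0.0609), in a range of 0.0127 to 0.0609 over 15 alternatives. In Tcf1 KO against WT the difference was -0.57 ± 0.10, with a 95% interval of -0.80 to -0.33. It missed the threshold at a limma adjusted p of 0.0553 and passed it only with a filter of 3 FPKM (adjusted p = 0.0495, range over 15 alternatives 0.0495 to 0.293). In that comparison 3.4% of tested genes had a lower value than Gramd4, against 5.9% in DKO against WT and 13.5% in DKO against Tcf1 KO.

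Since Gramd4 was the tested member that fell, its promoter is shown. RefSeq promoter windows (250 bases before to 50 bases after a start, GRCm38.p6, a later build than the mm9 named in the submitters' processing notes) matched 3 of the 5 members, Gramd1a with 1 window, Gramd1c with 3 and Gramd4 with 3. They were searched on both strands for the letters CTTTGAT and CTTTGAA, variants of the core that TCF and LEF proteins bind, and none of the 7 windows held either. The letters CTTTGTT and CTTTGTA, which complete the core, were added after that. CTTTGTT, read as AACAAAG on the printed strand, was present in 2 overlapping Gramd4 windows, and CTTTGTA in none. Of 32851 RefSeq windows, 3.73% held CTTTGAT, 5.14% CTTTGAA, 5.85% CTTTGTT and 3.63% CTTTGTA, and 16.9% held at least one of them. The first of the 2 Gramd4 windows, chr15:86058477-86058776 on the plus strand, is printed 5′ to 3′ with the match, which begins at base 168, in capitals.
Gramd4: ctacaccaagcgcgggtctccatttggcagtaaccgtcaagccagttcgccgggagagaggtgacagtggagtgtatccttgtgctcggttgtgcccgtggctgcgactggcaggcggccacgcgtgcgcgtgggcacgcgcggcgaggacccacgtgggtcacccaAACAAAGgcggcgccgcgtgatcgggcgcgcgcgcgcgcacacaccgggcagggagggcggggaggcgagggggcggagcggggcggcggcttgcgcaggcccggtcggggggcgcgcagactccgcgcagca
The match is a run of letters and not a measured binding site.

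Gramd1a, the Aster with by far the highest level here, rose slightly in DKO. It had 507.5 and 473.2 FPKM in DKO, 446.4 and 429.7 FPKM in Tcf1 KO and 406.7 and 400.5 FPKM in WT. The genotypes did not overlap, with DKO highest and WT lowest, and the means were 490.4 ± 24.2, 438.1 ± 11.8 and 403.6 ± 4.38 FPKM in that order. In DKO against WT the log2 difference was 0.28 ± 0.05 (limma adjusted p = 0.00769, higher in 2 of 2 libraries), a 1.21-fold ratio of means. The call ended without WT replicate 2 (adjusted p = 0.0584, in a range of 0.00518 to 0.0584 over 15 alternatives).

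In the other comparisons Gramd1a did not pass. It differed by 0.12 ± 0.05 in Tcf1 KO against WT (95% interval -0.01 to 0.25, limma adjusted p = 0.283) and by 0.16 ± 0.05 in DKO against Tcf1 KO (0.03 to 0.29, adjusted p = 0.0596). The comparison of DKO with Tcf1 KO passed under median scaling (adjusted p = 0.0488), with the replicate block (0.0398) and without DKO replicate 2 (0.0373), and reached 0.470 under quantile normalization, the highest of its 15 alternatives. Mean Gramd1a level exceeded that of 99.4%, 99.4% and 99.3% of tested genes in DKO, Tcf1 KO and WT.

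Gramd1b, the Aster with the strongest link to cholesterol handling in the mouse adrenal gland, showed no difference beyond the spread. Its levels were 30.4 and 25.2 FPKM in DKO, 22.4 and 25.4 FPKM in Tcf1 KO and 28.9 and 24.9 FPKM in WT, and all 3 genotypes overlapped. The log2 differences were 0.04 ± 0.12 in DKO against WT (95% interval -0.26 to 0.34, limma adjusted p = 0.801), then -0.16 ± 0.12 in Tcf1 KO against WT (-0.46 to 0.14, adjusted p = 0.511) and 0.20 ± 0.12 in DKO against Tcf1 KO (-0.09 to 0.50, adjusted p = 0.234).

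Gramd1c, the third Aster, was close to the lower limit of the genes tested. It had 1.72 and 1.97 FPKM in DKO, 1.49 and 1.89 FPKM in Tcf1 KO and 1.26 FPKM in both WT libraries. The libraries of DKO and of Tcf1 KO were above WT and overlapped each other. In DKO against WT the log2 difference was 0.33 ± 0.12 (95% interval 0.03 to 0.63), which did not pass (limma adjusted p = 0.0655). It passed under median scaling (0.0410), quantile normalization (0.0219) and without the variance trend (0.0352), and reached 0.205 over its 14 alternatives. The differences were 0.25 ± 0.12 in Tcf1 KO against WT (adjusted p = 0.318) and 0.08 ± 0.12 in DKO against Tcf1 KO (adjusted p = 0.625). The table merges 2 transcripts of Gramd1c and 2 of Gramd4 into 1 value each, so isoforms cannot be told apart.

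**Figure D3:**
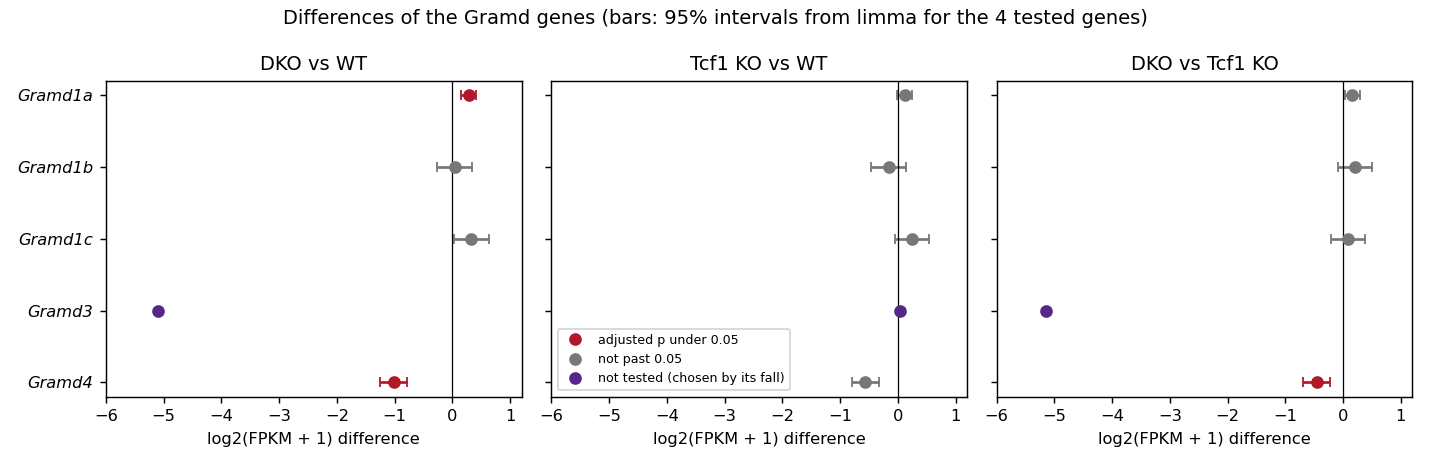
Log2(FPKM + 1) differences of the 5 Gramd genes in the 3 comparisons, with 95% intervals from limma for the 4 tested genes and none for Gramd3, which was chosen by its low level in DKO. Gramd4 (-1.02) and Gramd1a (0.28) pass in DKO against WT, Gramd4 alone (-0.46) in DKO against Tcf1 KO, and no tested member in Tcf1 KO against WT.

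Among the 4 tested members, 1 rose and 1 fell in DKO against WT, where 49.5% of all tested genes were called (21.7% higher and 27.8% lower). None passed by limma when Tcf1 KO was set against WT, with 1 at an unadjusted p under 0.05, where 2.09% of genes were called (1.33% higher and 0.754% lower). In DKO against Tcf1 KO 1 fell and none rose, beside 38.4% of genes called (15.9% higher and 22.6% lower). The background counts depend on single libraries: 3345, 141 and 2599 genes were called in the 3 comparisons, against 2219 and 2066 without WT replicate 1 or 2 in DKO against WT, 12, 12 and 13 without Tcf1 KO replicate 2 or WT replicate 1 or 2 in Tcf1 KO against WT, and 1583 and 1602 without Tcf1 KO replicate 1 or 2 in DKO against Tcf1 KO. The 3345 calls split into 1465 higher and 1880 lower, against 1767 and 1620 under median scaling. The median difference of the 4 was 0.16, against -0.03 over all tested genes, in DKO against WT. It was -0.02 against -0.01 in Tcf1 KO against WT and 0.12 against -0.03 in DKO against Tcf1 KO. With 2, 0 and 1 of 4 members called, the counts do not stand out from the background. Groups that do not overlap are common as well (77.4%, 55.8% and 69.1% of tested genes in the 3 comparisons). All 5 members passed the expression filter of 1 FPKM in 2 libraries, Gramd3 only through Tcf1 KO, WT and 1 DKO library. Comparisons that share the DKO or the WT libraries are not independent of each other.

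**Figure D4:**
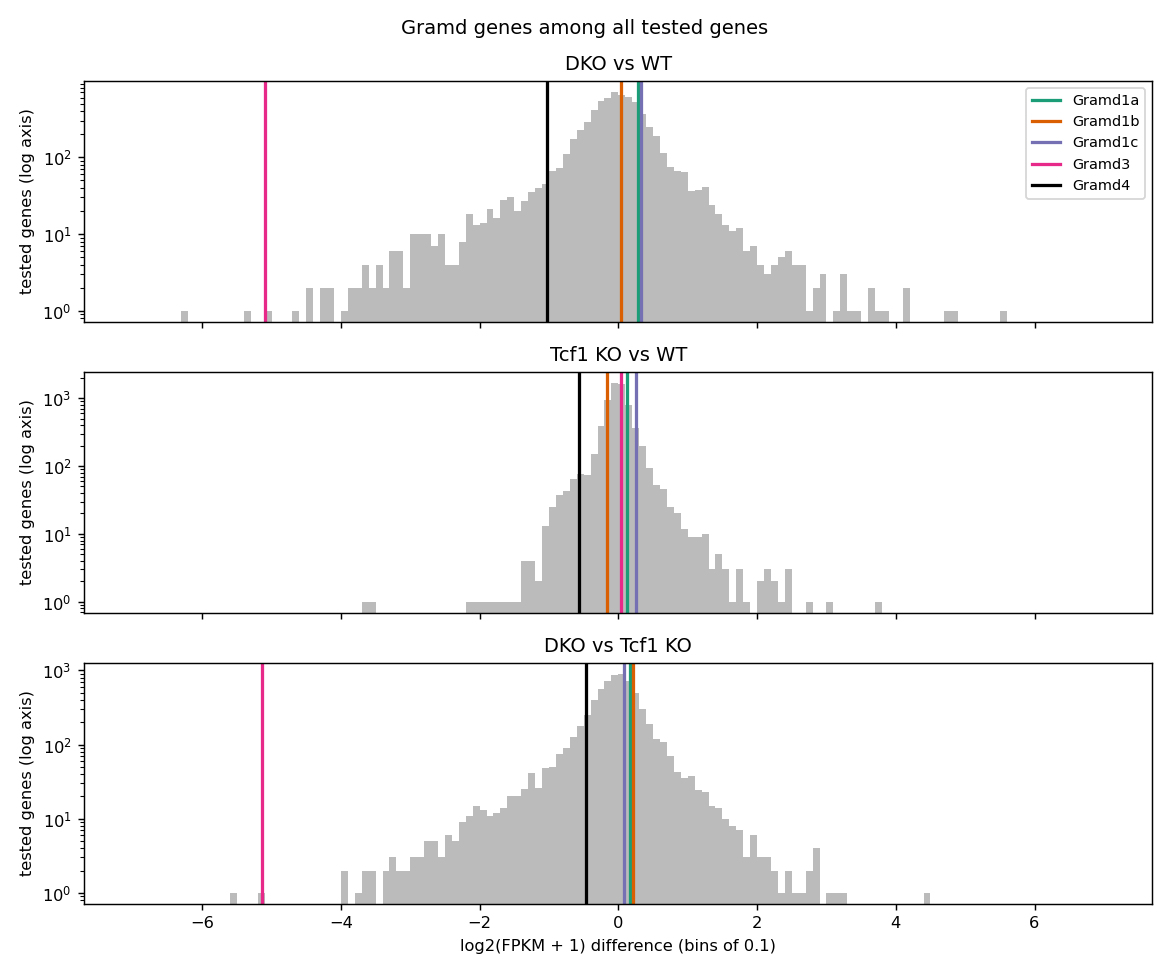
Distribution of log2(FPKM + 1) differences over 6761 tested genes in the 3 comparisons (bins of 0.1, log count axis), with a vertical line for each Gramd gene. Gramd3 lies at the far left in both comparisons with DKO and near 0 in Tcf1 KO against WT, while the Gramd1 genes lie within the bulk in all 3.

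The members make up different parts of the family's RNA. Gramd1a contributed 88.3% and 89.1% of the summed FPKM of the 5 genes in DKO, 77.3% and 76.3% in Tcf1 KO and 71.0% and 73.6% in WT. Gramd3 contributed 0.191% and 0.0979% in DKO, 11.4% and 10.3% in Tcf1 KO and 11.8% and 9.84% in WT. For Gramd4 the shares were 5.91% and 5.72% in DKO, 7.14% and 8.54% in Tcf1 KO and 12% and 11.8% in WT. The sum itself was 574.6 and 531.2 FPKM in DKO, 577.4 and 563.4 FPKM in Tcf1 KO and 573.1 and 544.1 FPKM in WT, with overlap between all genotypes. Shares are tied to each other, so a lower Gramd3 and Gramd4 raises the share of Gramd1a at an equal level.

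By FPKM the order in WT was Gramd1a, Gramd4, Gramd3, Gramd1b and Gramd1c, with the libraries of Gramd4 and Gramd3 overlapping. In Tcf1 KO, Gramd3 stood above Gramd4 without overlap. In DKO, Gramd4 was the second gene, its libraries just above those of Gramd1b, and Gramd3 the last, below Gramd1c. The related Gramd2 was listed at 0 in all 6 libraries.

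The genes with the pattern most like each of the other members were named by the same distance. For Gramd4 they were Ggt7, of the γ-glutamyltransferase family, at a distance of 0.114, Ephx1, a microsomal epoxide hydrolase, at 0.170 and Mid1ip1, a regulator of lipid synthesis, at 0.172. Ephx1 had 39.7 ± 3.20 FPKM in DKO, 52.0 ± 10.3 FPKM in Tcf1 KO and 82.4 ± 4.62 FPKM in WT. Nearest to Gramd1a were Kin (0.045), Map3k2, a MAP kinase kinase kinase (0.053), and Cpeb4, an mRNA-binding protein (0.055). Nhsl1 (0.025), the AP-1 factor gene Batf (0.108) and Bri3 (0.109) were nearest to Gramd1b, and Dstyk (0.083), Csgalnact2 (0.090) and Acad10 (0.098) to Gramd1c. Distances are over 6 libraries and depend on how far a gene moves, so they are not comparable between members.

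A list of genes for lipid transfer and membrane contact sites gave differences in both directions. In that list of lipid transfer and contact site genes, 17 members were tested, of which Osbpl3 reached 1 FPKM in DKO only. Of the other 16, 7 rose and 2 fell in DKO against WT, beside 21.7% of all tested genes higher and 27.8% lower, with a median of 0.11 against -0.03 over all genes. Osbpl5, an oxysterol-binding protein relative that moves lipids at ER contacts, was at 27.9 ± 1.12 FPKM in DKO against 8.58 ± 0.410 FPKM in WT (1.59 ± 0.07, limma adjusted p = 8.87e-05). Osbpl3, of the same family, was at 1.90 ± 0.0778 FPKM in DKO, 0.760 ± 0.0283 FPKM in Tcf1 KO and 0.535 ± 0.0778 FPKM in WT; it passed the filter only through DKO, where it is high, so no p is given. Npc2, which hands cholesterol on inside the lysosome, fell to 58.2 ± 4.35 FPKM in DKO, against 107.1 ± 0.997 FPKM in WT (-0.87 ± 0.06, adjusted p = 0.000312). Esyt1, an ER to plasma membrane tether, fell to 140.1 ± 13.7 FPKM in DKO, against 240.8 ± 4.48 FPKM in WT (-0.78 ± 0.08, adjusted p = 0.000997).

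The other 6 that rose there were Orai1, a calcium channel and not a lipid carrier, Osbpl8, Col4a3bp, Esyt2, Osbp and Osbpl7, with differences from 0.21 to 0.62. Of the 9 calls, 6 held whichever library was left out; those of Osbp (adjusted p = 0.0616 without WT replicate 2), Osbpl8 (0.0503 and 0.0745 without WT replicate 1 or 2) and Osbpl7 did not. Osbpl7 ended without DKO replicate 2 (0.0982), either WT library (0.113 and 0.156) or either Tcf1 KO library (0.0557 and 0.0556). In DKO against Tcf1 KO 5 of the 16 rose and 2 fell, beside 15.9% of all tested genes higher and 22.6% lower, and Osbpl5 (1.2 ± 0.07, adjusted p = 0.000363) and Npc2 (-0.79 ± 0.06, adjusted p = 0.000780) were again at the ends. None of the 17, Osbpl3 included, was called in Tcf1 KO against WT by limma, with 2 at an unadjusted p under 0.05.

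Of 13 tested genes with other GRAM-domain proteins, mostly of the myotubularin family, 4 rose and 1 fell in DKO against WT, with a median of 0.09 against -0.03 over all genes. That is 38.5% called, against 49.5% of all tested genes. Mtmr10 (0.53 ± 0.13), Mtmr14 (0.42 ± 0.06), Mtmr3 (0.39 ± 0.05) and Oxr1 (0.19 ± 0.05) rose and Mtmr1 (-0.27 ± 0.07) fell, all with limma adjusted p of 0.0263 or lower. Only the calls of Mtmr3 and Mtmr14 held whichever library was left out. In DKO against Tcf1 KO 4 rose and 2 fell (46.2% called, against 38.4% of all tested genes), the largest fall being that of Ncoa7 (-0.66 ± 0.09, adjusted p = 0.00332), and 2 of these 6 calls held in the same way. No gene of this list was called in Tcf1 KO against WT by limma, with 1 at an unadjusted p under 0.05.

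**Figure D5:**
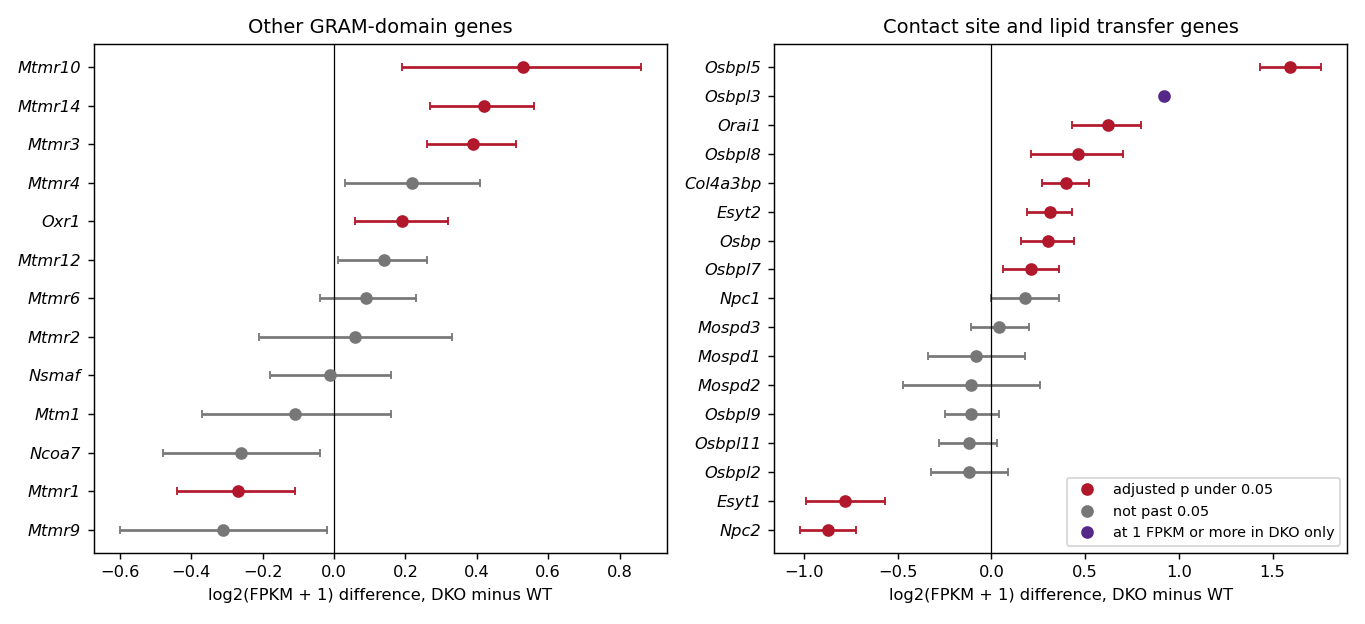
Log2(FPKM + 1) differences, DKO minus WT, with 95% intervals from limma, for 13 other GRAM-domain genes and 17 lipid transfer and contact site genes. Osbpl3, at 1 FPKM or more in DKO only, is drawn without an interval. Osbpl5 (1.59) stands highest and Npc2 (-0.87) and Esyt1 (-0.78) lowest in the contact site list, and the GRAM-domain genes span a narrower range.

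Sterol synthesis and sterol-responsive genes gave 7 calls. Of 21 tested members 2 rose and 5 fell in DKO against WT, with a median of 0.07 against -0.03 over all genes. That is 33.3% called, against 49.5% of all tested genes. Among those that fell were the synthesis enzymes Cyp51 (-0.51 ± 0.11), Fdft1 (-0.50 ± 0.09), Idi1 (-0.48 ± 0.11) and Nsdhl (-0.33 ± 0.08). Cyp51 was at 2.33 ± 0.375 FPKM in DKO against 3.74 ± 0.283 FPKM in WT. Mylip, whose product degrades the LDL receptor, rose by 0.76 ± 0.21 (41.9 ± 11.7 FPKM in DKO and 23.8 ± 1.46 FPKM in WT), and the oxysterol receptor gene Nr1h2 by 0.20 ± 0.05. None of these 7 calls held whichever library was left out. In DKO against Tcf1 KO 1 rose and 2 fell of 21 (14.3% called, against 38.4% of all tested genes), again with no call that held in that way, and in Tcf1 KO against WT none was called by limma, with 2 at an unadjusted p under 0.05.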

How the data were processed

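RNA of sorted CD8 thymocytes was sequenced in 6 libraries. The deposited table holds gene-level FPKM values; the submitters' processing notes name FastQC, RSEM 1.2.21 and the mm9 build. RSEM divides reads that match several genes by estimate, so values of similar genes are partly modelled. Genes with at least 1 FPKM in at least 2 libraries were kept (6761 of 16383). All 6 libraries entered 1 limma fit (limma 3.58.1, R 4.3.3) on log2(FPKM + 1) with genotype as the only term and a variance trend, checked on simulated data. The simulation changed far fewer genes than were called in DKO against WT, so it does not cover changes as broad as those. A pseudocount of 1 understates differences of low genes. P-values were Benjamini-Hochberg adjusted over all genes tested, at a threshold of 0.05. The fit left 3 residual degrees of freedom per gene. Tests and intervals used limma's moderated variances, which add degrees of freedom by pooling over genes. Gramd3 received no p. Members and gene lists were chosen with earlier results of these data known. Genes named were the 5 members, the genes nearest in pattern (5 for Gramd3, 3 for each other member) and called genes of the lists; of these, 2 are not reported here. Alternatives were the pseudocount, the filter, 2 scalings, no variance trend, a replicate block, a fit of the 2 groups compared and leaving out each library. Protein sequences were not used here.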

Additional observations from a re-analysis of the deposited data

How the results depend on the processing

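Of 177 alternative results for the 4 tested members, 164 kept their direction and their side of the threshold, 3 lost the call, 7 gained one and 3 changed sign; the causes were not tested. Gramd4 in DKO against WT stayed called throughout, at -1.10 to -0.95. Leaving out 1 library at a time gave 0.23 to 0.33 for Gramd1a, -0.09 to 0.17 for Gramd1b (negative without DKO replicate 1, and -0.06 without WT replicate 2) and 0.27 to 0.39 for Gramd1c in DKO against WT. It gave -0.57 to -0.35 for Gramd4, 0.11 to 0.21 for Gramd1a and -0.02 to 0.19 for Gramd1c (negative without Tcf1 KO replicate 1) in DKO against Tcf1 KO. In DKO against WT Gramd1c was 0.37 under median scaling, 0.44 under quantile normalization and 0.33 without the variance trend, all past the threshold. In DKO against Tcf1 KO Gramd1a passed at 0.22 under median scaling. With a filter of 3 FPKM Gramd4 passed in Tcf1 KO against WT at -0.57, making 1 member called, and Gramd1c was not tested. Members called were 1 to 2 in DKO against WT and 0 to 1 in DKO against Tcf1 KO when a library was left out, and 2 in DKO against Tcf1 KO under median scaling.

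Gramd3 was -6.12 and -5.57 with pseudocounts of 0.1 and 0.5 in DKO against WT (-5.33 to -4.86 with a library left out), and -6.17 and -5.61 in DKO against Tcf1 KO (-5.37 to -4.91). Genes called ranged from 2066 to 3115 in DKO against WT, 12 to 177 in Tcf1 KO against WT and 1583 to 2275 in DKO against Tcf1 KO with a library left out, and 39 in Tcf1 KO against WT without the filter. Quantile normalization split the DKO against WT calls into 1817 higher and 1626 lower. In DKO against Tcf1 KO the 1072 higher and 1527 lower became 1309 and 1278 under median scaling and 1331 and 1302 under quantile normalization.

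Libraries share only a replicate number: deviations of same-numbered libraries correlated at 0.147 (DKO and Tcf1 KO), 0.154 (DKO and WT) and 0.045 (Tcf1 KO and WT). With the replicate block 3571, 151 and 2812 genes were called in the 3 comparisons, and Gramd1a passed in DKO against Tcf1 KO at 0.16, making 2 members called. The planned comparison of member protein sequences was not run. With 2 libraries a genotype, the fit without 1 assumes that the lone library varies like the others. Depth is approximate, and the lowest Gramd3 and Gramd1c values rest on the fewest fragments.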
